A study of Mus musculus with 24 samples.

Results

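The response of Mdm4 transgenic blood stem and progenitor cells to poly(I:C) was measured in 5 of the 24 libraries of the series. The cells are LSK cells, bone marrow cells sorted for the absence of lineage markers and the presence of Sca-1 and Kit, and their RNA was sequenced as polyadenylated RNA. Of the 5 libraries from mice with the genotype Mdm4Tg, which carry an Mdm4 transgene on an otherwise unmodified Fancg background as far as the labels say, 2 came from mice given poly(I:C) and 3 from mice given PBS as vehicle. They were chosen by these labels. Each bears a replicate number in its title: 2, 7 and 8 for PBS, 7 and 8 for poly(I:C). The response was set beside those of wild-type mice (WT, 3 poly(I:C) and 4 PBS libraries) and of mice that carry the transgene and lack Fancg (FancgKO_Mdm4Tg, 2 and 3). The labels give no promoter for the transgene, no dose or time of poly(I:C), no age, and no statement that libraries came from separate animals. The p-values therefore describe the spread between libraries within the groups of the whole series, which may be technical.

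Poly(I:C) is a synthetic double-stranded RNA. Receptors such as Tlr3 and Ifih1 sense it and induce type I interferon, which acts through Ifnar1 and JAK-STAT signalling to switch on interferon-stimulated genes, and in bone marrow it drives quiescent stem cells into division and shifts output towards myeloid cells. Mdm4 binds p53 and holds its activity down, and p53 acts in dividing stem cells through targets such as the cell-cycle inhibitor Cdkn1a and the pro-apoptotic Pmaip1.

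Depth was 1255703 to 8229715 reads in the 5 libraries and 807686 to 8229715 in all 24. The shallowest of the 5 was PBS replicate 7 and the deepest poly(I:C) replicate 8. Mdm4 was at 5175 to 7105 normalised counts in the 5 libraries, against 750.9 to 955 in the 7 WT libraries, and Fancg was at 41.3 to 68 against 61.5 to 78.4. Kit was at 1662 to 2414 and Ly6a, the Sca-1 gene, at 14.2 to 45.9. The lineage genes Cd3e of T cells and Ly6g of neutrophils were at 0 in all 5, but they were chosen after their values were seen. Of 15 listed sort gate and lineage genes 2 were at 0 in all 5, and 9 had counts high enough to be tested. Lck, another T cell gene, was at 13.3 to 56.1. The replicate numbers separated all 24 libraries for Fos, an immediate early gene that many stimuli induce within minutes. It was at 1241 to 4035 in the 12 libraries numbered 6 or 7 and at 31.8 to 229 in the 12 numbered 2, 4 or 8. The titles of the former end in _d and those of the latter in _d_2. The labels do not say what this ending means, and for this split the number and the ending cannot be told apart. Number 7 makes up 1 of 3 PBS and 1 of 2 poly(I:C) libraries here, so differences within number 7 and within number 8 are given beside most of the gene groups below.

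Genes with a normalised count of 10 or more in at least 2 libraries were tested, 12628 of 26267. No gene passed limma's test at an adjusted p of 0.05 (0 of 12628, 0%), and the smallest limma adjusted p was 0.0925. Without PBS replicate 7 limma called 11 genes, 10 of them higher. The 0 also depended on leaving the replicate number out of the model. With that number added as a block limma called 612 genes (288 higher), but 9 without PBS replicate 8 and 764 without PBS replicate 7. The limma p-values below are those without the block. In that fit 1605 genes had an unadjusted p under 0.05 (12.7%), 840 higher with poly(I:C) (6.65%) and 765 lower (6.06%). On whole reads recovered from the table, edgeR called 13 genes (0.103%), 12 higher (0.095%) and 1 lower (0.00792%), and it had 2056 genes at an unadjusted p under 0.05. DESeq2 called 45 of 11888 (0.379%), 33 higher (0.278%) and 12 lower (0.101%), among them all 13 of edgeR. Both poly(I:C) libraries lay above all 3 PBS libraries for 2283 genes (18.1%) and below them for 2386 (18.9%). The log2 difference was above 0 for 6418 genes (50.8%), with a median of 0.01 over all genes. These shares over all genes are the background for the list counts below.

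The genes that edgeR called included receptors and regulators of the myeloid and mast cell branches. Il1rl1 encodes the receptor for interleukin 33, an alarm cytokine, on mast cells and basophils (chromosome 1, 40429570 to 40465415 of mm10). Its normalised counts were 23.9, 41.3 and 19.5 in PBS replicates 2, 7 and 8, and 149 and 168 in poly(I:C) replicates 7 and 8. The PBS library nearest to the poly(I:C) libraries was replicate 7, and the groups did not overlap. The log2 difference in limma was 2.52 ± 0.46 (SE, n = 2 and 3), with an adjusted p of 0.0925 in limma and 0.0225 in edgeR. Trib2 encodes a pseudokinase that directs the myeloid factor C/EBP alpha to degradation (chromosome 12, 15791727 to 15816922). It was at 17.2, 41.3 and 23.9 with PBS and at 149 and 151 with poly(I:C), a limma log2 difference of 2.50 ± 0.48 (edgeR adjusted p = 0.0225). Replicate 7 was again the highest PBS library, and both poly(I:C) libraries exceeded it.

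St8sia6, a sialyltransferase gene that builds sialic acid chains on cell-surface glycans, had the largest limma difference among the called genes with a mean of at least 50. Its counts were 17.2, 62.9 and 21.4 with PBS and 164 and 215 with poly(I:C), and the limma log2 difference was 2.67 ± 0.52 (edgeR adjusted p = 0.0333). E2f8, a repressor of the E2F family whose transcript peaks in S phase, was at 152, 228 and 186 against 321 and 336, a smaller limma difference of 0.82 ± 0.17 (edgeR adjusted p = 0.0447). The only gene edgeR called lower was Camk2a, which encodes a calcium-dependent kinase best known from neurons. It was at 117, 112 and 136 with PBS and at 43.4 and 56.7 with poly(I:C), a limma log2 difference of -1.27 ± 0.26 (edgeR adjusted p = 0.0447). Here PBS replicate 7 was the lowest PBS library but still lay above both poly(I:C) libraries. The other called genes were the replication-dependent histone gene Hist1h4j, the small nuclear RNA gene Gm25360, and Epdr1, Parm1, Kcnc1, 1700006J14Rik and Gm26616. Kcnc1 rested on 3, 0 and 1 reads with PBS and on 24 and 51 with poly(I:C). 1700006J14Rik is annotated as antisense, and since the use of strand in counting is not given in the sources used here, its reads cannot be told apart from those of its partner. All 13 genes had a log2 difference of the same sign in WT and in FancgKO_Mdm4Tg. The share of all tested genes with the same sign in these genotypes was not counted, so this count has no background to be read against.

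**Figure D1:**
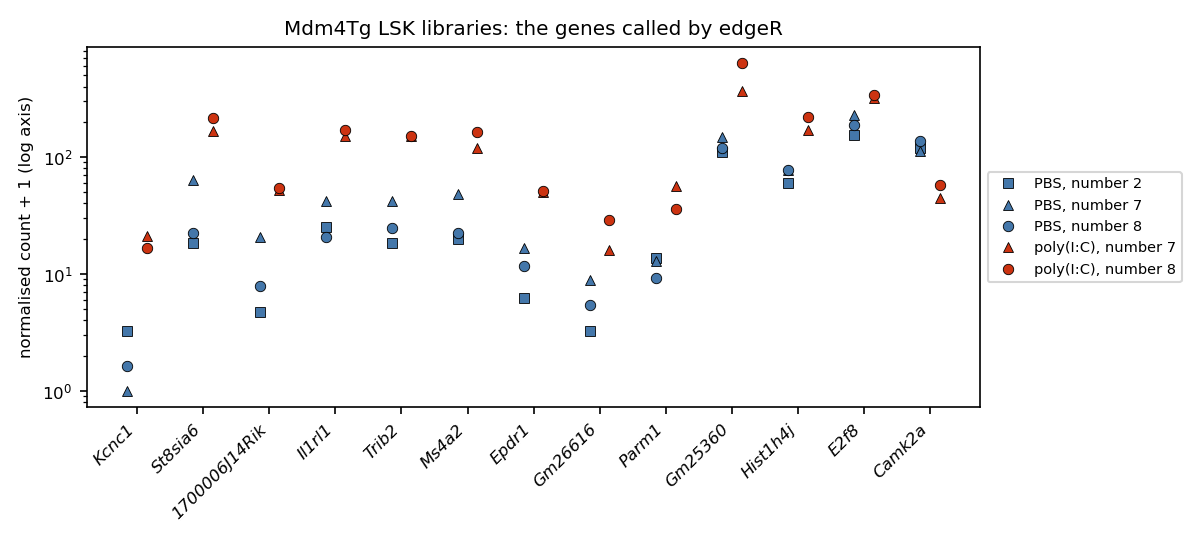
Normalised count plus 1 on a log axis for the 13 genes called by edgeR, ordered by log2 difference, in each of the 5 Mdm4Tg libraries (blue PBS, red poly(I:C), shape by replicate number). Both red points lie above the 3 blue points for 12 genes and below them for Camk2a, and PBS replicate 7 is the blue point nearest the red ones for Il1rl1, Ms4a2, Trib2 and St8sia6.

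Mast cells and basophils arise from LSK-derived progenitors under GATA factors, and they store histamine and proteases and carry the high-affinity IgE receptor. Of 19 listed genes 13 were tested: 10 had a positive difference, 8 lay above all PBS libraries, 7 were higher and 1 lower at an unadjusted p under 0.05, and the median was 1.14. Ms4a2 encodes the beta chain of that receptor. It was at 18.7, 47.1 and 21.4 with PBS and at 118 and 163 with poly(I:C), a limma log2 difference of 2.34 ± 0.45 (edgeR adjusted p = 0.0231). Hdc, the enzyme that makes histamine, was at 8.97, 37.3 and 12.6 against 105 and 74.5. Cpa3, a granule protease of mast cells, was at 69.5, 181 and 95.6 against 223 and 249.7. The groups were apart for Hdc and for Cpa3, and neither gene passed (each with a limma adjusted p of 0.29). Transcripts of mature mast cell proteases were near 0: Cma1 was at 4.17 or less and Tpsb2 at 0.834 or less in every library. Within number 7 the list's median difference was 0.30 (9 of 13 positive) and within number 8 it was 1.38 (11 of 13).

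GATA factors are known regulators of mast cell genes, and the promoters were searched for their motif. Il1rl1, Ms4a2 and Cpa3 lay above all PBS libraries in both poly(I:C) libraries and held a match, and they were chosen for display after the search. The 250 bases before their transcription starts are shown from RefSeq (GRCm38.p6), each 5′ to 3′ on the gene's own strand. Capitals mark AGATAA or TGATAA on either strand (TTATCT or TTATCA on the other), the hexamers GATA factors prefer. The windows are chr1:40429320-40429569 on the plus strand for Il1rl1, chr19:11623720-11623969 on the minus strand for Ms4a2 and chr3:20242182-20242431 on the minus strand for Cpa3.
Il1rl1: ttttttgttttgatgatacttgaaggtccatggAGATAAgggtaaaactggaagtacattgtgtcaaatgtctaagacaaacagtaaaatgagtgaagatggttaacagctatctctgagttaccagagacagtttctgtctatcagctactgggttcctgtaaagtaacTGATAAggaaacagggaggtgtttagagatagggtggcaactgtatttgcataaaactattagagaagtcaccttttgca
Ms4a2: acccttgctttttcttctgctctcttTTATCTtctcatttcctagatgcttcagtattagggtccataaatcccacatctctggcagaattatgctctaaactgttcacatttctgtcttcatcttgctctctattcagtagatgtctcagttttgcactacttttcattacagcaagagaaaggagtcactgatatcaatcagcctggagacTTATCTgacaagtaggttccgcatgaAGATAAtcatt
Cpa3: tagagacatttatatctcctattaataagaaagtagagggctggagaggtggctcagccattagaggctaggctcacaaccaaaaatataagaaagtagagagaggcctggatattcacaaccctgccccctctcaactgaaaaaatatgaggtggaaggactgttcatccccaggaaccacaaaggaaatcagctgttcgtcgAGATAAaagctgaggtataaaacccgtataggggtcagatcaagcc
Il1rl1 held 2 matches, Ms4a2 3 and Cpa3 1, the last of them 46 bases before the start. Of the 13 tested mast cell genes, 5 had a match (38.5%), and so did 3 of the 9 edgeR-called genes with a window (33.3%). Il1rl1 and Ms4a2 are in both counts, so these shares are not separate. The share was 11.4% of 8860 tested genes with a window, 18.8% of 27025 RefSeq genes and 16.6% of all 32851 windows. Trib2 and Hdc, which also lay above all PBS libraries, had none. Fcer1a and Prss34, mast cell list genes that are not shown, each held 1 match. Whether a match goes with the response to poly(I:C) was not tested. A match describes the letters of the window and is not a measured binding site.

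Granulocyte and myeloid progenitor genes were higher as a group, with 25 of 28 positive, 24 above all PBS libraries, 17 higher and 1 lower at an unadjusted p under 0.05, and a median of 1.23. Elane, which encodes neutrophil elastase, was at 23.2, 74.6 and 35.2 with PBS and at 647 and 462 with poly(I:C), a log2 difference of 3.76 ± 1.25 (limma adjusted p = 0.29). Ms4a3, a marker of granulocyte and monocyte progenitors, was at 12.7, 17.7 and 31.4 against 197 and 298. Mpo, the myeloperoxidase of primary granules, was at 1376, 3104 and 1555 against 8603 and 6103. The groups did not overlap for any of these 3 genes, and PBS replicate 7 was the highest PBS library for Elane and Mpo. Cebpa, the transcription factor that commits cells to this branch, was at 66.5, 92.3 and 69.2 against 158 and 152. Csf3r, the receptor for granulocyte colony-stimulating factor, went the other way, at 266, 232 and 211 against 193 and 124 (limma adjusted p = 0.382). The summed level of the list was 3993 to 6588 in the PBS libraries and 13284 to 14947 in the poly(I:C) libraries, and its median difference was 0.94 within number 7 and 1.82 within number 8 (26 of 28 positive in each). In bulk RNA, more cells of a type and more RNA per cell cannot be told apart.

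Monocyte genes showed a similar direction, with 11 of 13 positive, 6 above all PBS libraries and a median of 0.93, which ran from 0.55 to 1.81 over the processing settings. It was 0.42 within number 7 (8 of 13 positive) and 1.06 within number 8 (12 of 13). Ly6c2, the surface antigen of inflammatory monocytes and their progenitors, was at 19.4, 19.6 and 22.6 with PBS and at 183 and 325 with poly(I:C). Ccr2, the chemokine receptor by which monocytes leave the marrow, was at 52.3, 108 and 78 against 186 and 499. Both groups were apart for both genes (limma adjusted p = 0.29). Of 15 genes of mature neutrophils 2 were tested, and S100a8 was at 6.47 or less. Of 17 T and NK cell genes 3 were tested, with Cd3e and Cd8b1 at 0 in all 5 libraries. The list's summed level was 171 to 191 in the PBS libraries and 214 and 258 with poly(I:C). Most of it came from Nkg7, a granule protein gene of cytotoxic cells that also stands in the granulocyte list, at 103, 122 and 96.8 against 186 and 215. Lck, a kinase of the T cell receptor pathway, was at 56.1, 29.5 and 37.7 against 13.3 and 24.9.

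Erythroid genes had the largest median of the lists with at least 5 tested members, 1.54, with 19 of 21 positive and 14 above all PBS libraries. Klf1, the master regulator of the red cell programme, was at 2.24, 11.8 and 1.26 with PBS and at 50.03 and 32.6 with poly(I:C), a log2 difference of 3.19 ± 0.81 (limma adjusted p = 0.29, DESeq2 adjusted p = 0.0228). Car1, an early erythroid carbonic anhydrase, was at 62.03, 173 and 18.2 against 483 and 614. Gata1, which drives erythroid, megakaryocyte and mast cell fates, was at 12.7, 53.04 and 13.8 against 100.1 and 55.4, so that PBS replicate 7 came close to poly(I:C) replicate 8. Late products were absent or nearly so: Alas2, the erythroid form of the first heme enzyme, was at 0 in all 5, and Hba-a1 was at 0.747 or less. Alas1, the form used in all tissues, was at 94.9, 108 and 80.5 against 336 and 278. Within number 7 the erythroid median was 0.77 and within number 8 it was 1.69.

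Megakaryocyte genes followed the replicate number as well as the treatment. Of 21 tested genes 17 were positive (median 0.70), but 6 lay above all PBS libraries and 3 below. Over all genes tested 18.1% lay above and 18.9% below. Pf4, a platelet chemokine gene, was at 7.47, 60.9 and 10.1 with PBS and at 118 and 82.5 with poly(I:C). Vwf, which encodes the adhesive protein of platelets and marks platelet-biased stem cells, was at 14.2, 141 and 28.9 against 185 and 45.3, high in both libraries numbered 7 and low in the other three. Itga2b, the CD41 gene, had the same order, at 79.2, 285 and 95.6 against 334 and 111. The list's median was 0.23 within number 7 (13 of 21 positive) and 0.77 within number 8 (16 of 21). The immediate early list split by number: its summed level was 18423 and 16036 in the PBS and poly(I:C) libraries numbered 7 and 2134 to 2443 in the others. Its median was 0.31 across the groups but -0.18 within number 7 and -0.33 within number 8. Of its 22 members 14 were negative in both (63.6%), against 33.6% of all genes tested.

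**Figure D2:**
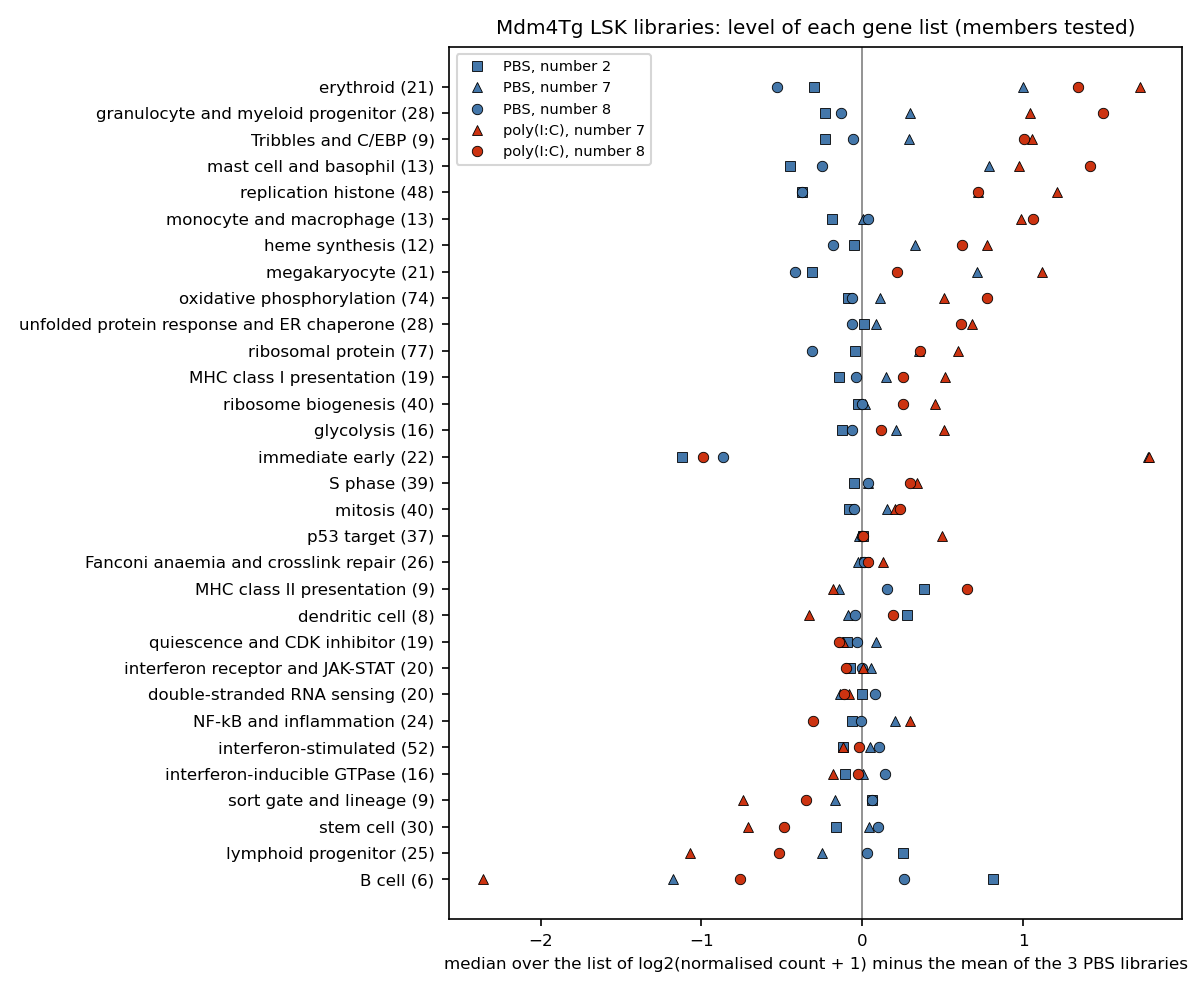
Median over each gene list of log2(normalised count + 1) minus the mean of the 3 PBS libraries, for the 5 Mdm4Tg libraries, with the number of tested genes in brackets (blue PBS, red poly(I:C), shape by replicate number). The red points lie right of the blue ones for the granulocyte and myeloid progenitor, monocyte, oxidative phosphorylation and unfolded protein lists and left of them for the stem cell and lymphoid progenitor lists, while the immediate early list splits by shape.

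Stem cell genes were lower. Of 30 tested members 24 were negative, 17 lay below all PBS libraries and 2 above, 14 were lower and 2 higher at an unadjusted p under 0.05, and the median was -0.51. Mecom, a factor that maintains long-term stem cells, was at 176, 189 and 259 with PBS and at 65.04 and 66.5 with poly(I:C), a log2 difference of -1.63 ± 0.49 (limma adjusted p = 0.29). Hlf, a transcription factor that marks stem cells and early multipotent progenitors, was at 1073, 595 and 1239 against 298 and 457. In both genes the groups did not overlap, and the poly(I:C) libraries were closer together for Mecom than for Hlf. Not every stem cell gene was lower: Gata2 was at 236, 328 and 253 against 645 and 359, and Procr, the EPCR gene, overlapped at 14.9, 15.7 and 27.7 against 15.01 and 14.5. The median was -0.65 within number 7 and -0.58 within number 8. Of the 30 members 24 were negative in both (80%), against 33.6% of all genes tested.

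Lymphoid progenitor genes were lower too, with 23 of 25 negative, 15 below all PBS libraries, 10 lower at an unadjusted p under 0.05 and a median of -0.87. Flt3, the cytokine receptor of lymphoid-primed progenitors, was at 1623, 1092 and 1419 with PBS and at 466 and 769 with poly(I:C), a log2 difference of -1.18 ± 0.37 (limma adjusted p = 0.29). Satb1, a chromatin organiser that promotes lymphoid fate, was at 1790.01, 996 and 1377 against 519 and 695. Notch1, the receptor that instructs T cell fate, was at 689.8, 515 and 472 against 357 and 299. All 3 separated the groups. Dntt, the terminal transferase of early lymphocytes, was at 1255, 501 and 780.4 against 130.1 and 467, and Il7r at 158, 15.7 and 81.1 against 3.34 and 45.3, so that the spread by number was as wide as the difference between groups for Il7r. The median was -0.73 within number 7 and -0.67 within number 8. Ptprc and Cd34, carried by stem and progenitor cells in general, were also below all PBS libraries, at 1147 and 1395 against 1879 to 2046 and at 1195 and 1547 against 1752 to 2099. So was Kit, the stem cell factor receptor on which the cells were sorted, at 1813 and 1662 against 2138 to 2414 (limma adjusted p = 0.325). Its part in the lower stem cell and lymphoid progenitor levels was not tested.

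The interferon pathway itself showed no common shift at the time of sampling, which the labels do not give. Among the sensors and signal carriers of double-stranded RNA 8 of 20 genes were positive (median -0.09), and among interferon receptors and JAK-STAT components 8 of 20 (median -0.08). Of the interferon-stimulated genes 23 of 52 were positive, 7 lay above and 10 below all PBS libraries, 4 were higher and 4 lower at an unadjusted p under 0.05, and the median was -0.12 (-0.19 within number 7 and -0.13 within number 8). Oasl2, an antiviral 2'-5' oligoadenylate synthetase-like gene, was at 72.5, 106 and 112 with PBS and at 50.9 and 64.05 with poly(I:C). Mx1, an antiviral GTPase gene, went the other way at low counts, at 3.74, 5.89 and 11.3 against 12.5 and 13.5. Neither passed (limma adjusted p = 0.292 and 0.396). Tlr7, a sensor of single-stranded RNA in endosomes, was at 122, 100.2 and 108 against 18.3 and 65.3. Ifngr1 and Ifngr2, both chains of the interferon gamma receptor, lay above all PBS libraries, at 394 and 541 against 227 to 269 and at 78.4 and 84.4 against 44.8 to 53.04.

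Class I antigen presentation genes, many of which interferon induces, were higher on balance, with 17 of 19 positive, 9 above all PBS libraries and a median of 0.44. B2m, the light chain of class I molecules, was at 2549, 2671 and 2417 with PBS and at 3211 and 4866 with poly(I:C). H2-K1, a classical heavy chain, was at 1306, 1446 and 1223 against 1963 and 1819.97. H2-Q7, a non-classical heavy chain with close paralogs among which reads could be split, was at 168, 129.6 and 141 against 256 and 233 (limma adjusted p = 0.274, DESeq2 adjusted p = 0.0492). The groups did not overlap for these 3 genes. The median was 0.28 within number 7 and 0.30 within number 8.

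**Figure D3:**
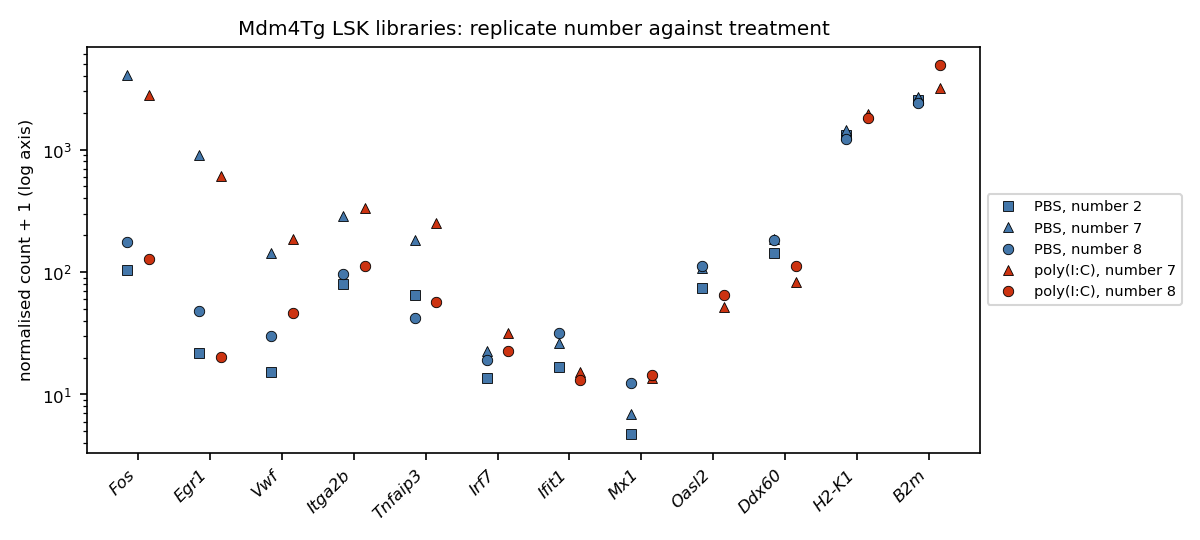
Normalised count plus 1 on a log axis for 5 genes that follow the replicate number (Fos to Tnfaip3) and 7 genes of the interferon and class I pathways, in each of the 5 Mdm4Tg libraries (blue PBS, red poly(I:C), shape by replicate number). Triangles (number 7) are high for Fos, Vwf and Itga2b in both colours, while H2-K1 and B2m have both red points above the blue ones and Ddx60 and Oasl2 have them below.

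Targets of p53, which Mdm4 restrains, did not move together. Of 37 tested genes 24 were positive (median 0.22, with 0.13 within number 7 and 0.02 within number 8), 5 lay above and 7 below all PBS libraries, and 1 was higher and 2 lower at an unadjusted p under 0.05. Cdkn1a was at 13.5, 47.1 and 17 with PBS and at 33.4 and 20.3 with poly(I:C), while Mdm2, which encodes the main ubiquitin ligase of p53, was at 238, 257 and 226 against 240.2 and 229.7. Both genes overlapped between the groups. Sesn1, a p53 target that restrains growth signalling, lay below all PBS libraries, at 204 and 243 against 313 to 352 (limma adjusted p = 0.29). Fanconi anaemia and crosslink repair genes had a median of 0.08, with 18 of 26 positive and 2 each above and below all PBS libraries.

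Genes of DNA replication and cell growth were higher by small amounts. Of 39 S phase genes 38 were positive, 20 lay above all PBS libraries, and the median was 0.30 (0.26 within number 7 and 0.23 within number 8). Ccne1, the cyclin that opens S phase, was at 20.9, 27.5 and 18.2 with PBS and at 38.4 and 46.8 with poly(I:C), and Mcm2, a subunit of the replicative helicase, at 316, 395 and 394 against 561 and 469. Mitosis genes had a median of 0.24 (37 of 40 positive), which was 0.00 within number 7 and 0.34 within number 8. Chaperones and sensors of the endoplasmic reticulum were positive in 28 of 28 genes with 19 above all PBS libraries and a median of 0.63 (0.67 within number 7 and 0.64 within number 8). Calr, the chaperone calreticulin, was at 1050.09, 1363 and 1195 against 2498 and 2396, and Hspa5, the chief chaperone of this compartment, at 994, 1367 and 862 against 3555 and 1494. Ribosome biogenesis genes were positive in 38 of 40 (median 0.35, 29 above all PBS libraries), with 0.41 within number 7 and 0.22 within number 8.

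Transcripts of the respiratory chain and of the ribosome were higher in most members. Oxidative phosphorylation genes were positive in 72 of 74, with 57 above all PBS libraries, 41 higher at an unadjusted p under 0.05 and a median of 0.66 (0.42 within number 7 and 0.86 within number 8). Cox5b, a subunit of cytochrome c oxidase, was at 43.3, 35.4 and 42.1 with PBS and at 69.2 and 99.5 with poly(I:C). Ribosomal protein genes were positive in 76 of 77 (median 0.51, 33 above all PBS libraries). Their median was 0.21 within number 7 (65 of 77 positive) and 0.71 within number 8 (76 of 77), and their summed level in PBS replicate 7, 45156, was close to the 46933 of poly(I:C) replicate 8. Replication-dependent histone genes were positive in 48 of 48, with 24 above all PBS libraries and a median of 0.97 (0.46 within number 7 and 1.09 within number 8). Hist1h4j was at 59.04, 76.6 and 76.7 with PBS and at 169 and 220.2 with poly(I:C), a limma log2 difference of 1.45 ± 0.28 (edgeR adjusted p = 0.0333). Histone genes have near-identical copies, so how reads were divided among them is uncertain.

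These 3 lists consist of short transcripts, and the difference moved with transcript length over all genes. Across 10810 protein-coding genes the log2 difference fell with the total exon length, with a Spearman rho of -0.38 as a description over genes that share the same 5 libraries (-0.269 in WT and -0.306 in FancgKO_Mdm4Tg). The genes were split by exon length into 4 classes of like size. In the shortest class, with 312 to 3003 exon bases, the median was 0.28 (75.3% positive), and in the longest, with 7077 to 123179 bases, it was -0.13 (33.3% positive). The median exon length was 527 bases for the histone list, 1781 for ribosomal proteins and 1814 for oxidative phosphorylation, against 4672 for all protein-coding genes tested. It was 2029 for the granulocyte and myeloid progenitor list, 1517 for the mast cell list, 5489 for the stem cell list, 5380 for the lymphoid progenitor list, 4268 for S phase genes, 3990 for ribosome biogenesis genes and 3386 for chaperones. The part of length in these results was not tested.

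**Figure D4:**
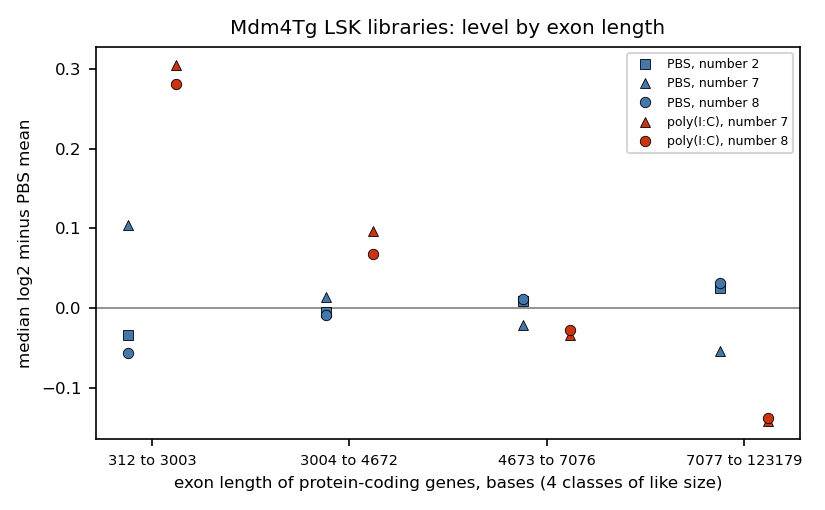
Median of log2(normalised count + 1) minus the mean of the 3 PBS libraries, by class of exon length over 10810 protein-coding genes, for each of the 5 Mdm4Tg libraries (blue PBS, red poly(I:C), shape by replicate number). Both poly(I:C) libraries go from near 0.30 and 0.28 in the shortest class to -0.14 in the longest, and PBS replicate 7 goes the same way from 0.10 to -0.05.

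Whether the transgene changes the response was asked by subtracting the response of another genotype, with which it shares no libraries. No gene passed for Mdm4Tg minus WT in limma (0 of 12628, 0%), with 61 at an unadjusted p under 0.05 (0.483%), 40 higher (0.317%) and 21 lower (0.166%). For Mdm4Tg minus FancgKO_Mdm4Tg limma called 0 (0%), with 66 at an unadjusted p under 0.05 (0.523%), 43 higher (0.341%) and 23 lower (0.182%). EdgeR and DESeq2 also called 0 in both, with 70 and 56 genes at an unadjusted p under 0.05 against WT and 84 and 55 against FancgKO_Mdm4Tg. The smallest limma adjusted p was 1 in both. These shares are below the 0.05 that unadjusted p-values give on average when nothing differs, so the 0 calls do not show that the responses are alike. With the replicate number added to the limma model as a block, 209 genes against WT and 230 against FancgKO_Mdm4Tg had an unadjusted p under 0.05. Again 0 were called. In WT poly(I:C) the Xist counts were 5943, 20207 and 0.313 in replicates 6, 7 and 8, while WT PBS had at most 24.8 and Mdm4Tg at most 3.93, so Xist, which is expressed from the inactive X chromosome of female cells, differed in level within the WT libraries but not within the Mdm4Tg libraries. The part of this in the comparison with WT was not tested.

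Most lists had medians of the same sign in the 3 genotypes. The granulocyte and myeloid progenitor median was 1.23 in Mdm4Tg, 1.23 in WT and 1.27 in FancgKO_Mdm4Tg, the stem cell median was -0.51, -0.55 and -0.54, and the chaperone median was 0.63, 0.62 and 0.60. The replication histone median was 0.97 in Mdm4Tg against 0.35 in WT and 0.52 in FancgKO_Mdm4Tg. In Mdm4Tg it was 0.46 within number 7 and ran from 0.41 to 1.30 over the processing settings, and the summed level of PBS replicate 7, 10226, exceeded the 9241 of poly(I:C) replicate 8. Hist1h4j had a limma log2 difference of 1.45 ± 0.28 in Mdm4Tg, 0.24 ± 0.23 in WT and 0.57 ± 0.28 in FancgKO_Mdm4Tg, and its difference of responses to WT was 1.20 ± 0.36 (limma unadjusted p = 0.00308, adjusted p = 1). In WT its counts ran from 105 to 133 under PBS and from 104 to 175 under poly(I:C), so that WT started higher than the 59.04 to 76.7 of Mdm4Tg. In WT, Procr ran from 14.2 to 35.1 under PBS and from 1.48 to 10.95 under poly(I:C), a log2 difference of -2.30 ± 0.49, against -0.32 ± 0.59 in Mdm4Tg (difference of responses 1.98 ± 0.77, limma unadjusted p = 0.0172, adjusted p = 1). Pmaip1, the p53 target that encodes Noxa, ran in WT from 1.91 to 7.96 under PBS and from 17.5 to 26.4 under poly(I:C), where the groups did not overlap. In Mdm4Tg it was at 6.73, 9.82 and 6.29 against 16.7 and 8.31, where they did, and the difference of responses was -1.62 ± 0.75 (limma unadjusted p = 0.0426, adjusted p = 1). Of the 37 tested p53 targets, 1 had an unadjusted p under 0.05 for this difference, so Pmaip1 does not stand for the list. Bbc3, another pro-apoptotic target, went the other way at low counts (1.00 ± 0.63). Cdkn1a was at 0.18 ± 0.68 and Bax at -0.03 ± 0.46. None of these differences between genotypes passed the adjusted test.

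**Figure D5:**
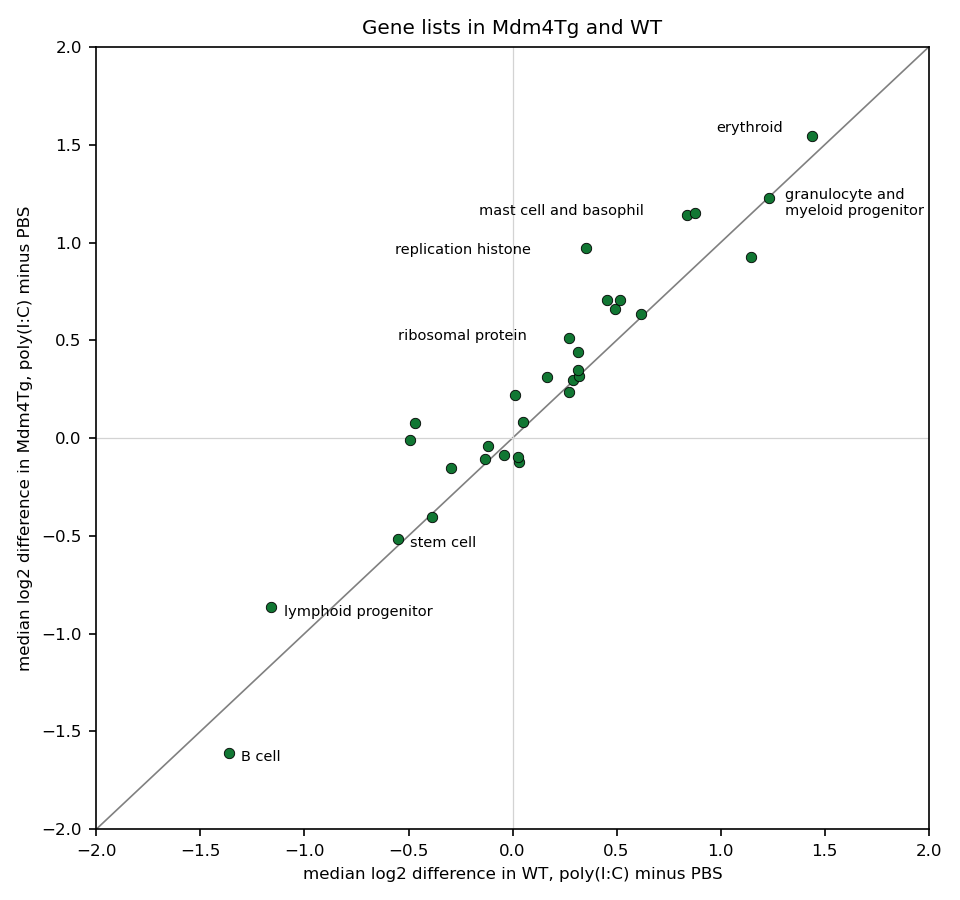
Median log2 difference, poly(I:C) minus PBS, of each gene list with at least 5 tested members in Mdm4Tg (vertical) against WT (horizontal), with the line of equal values. Most lists lie near the line, and the replication histone list lies farthest above it among the labelled lists, at 0.97 in Mdm4Tg (0.46 within number 7) and 0.35 in WT.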

How the data were processed

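Per the labels, polyadenylated RNA of sorted LSK cells was made into 24 libraries with the CATS RNA-seq kit. The deposited table gives a signal value per gene and library: normalised counts made by the authors, as its name says. The submitters' processing notes list STAR and mm10. The counter, the strand setting and the normalisation tool are not given in the sources used here. All values of a column could be divided by the smallest one above 0 to give whole numbers (100% of values at a relative tolerance of 1e-06), and these were taken as reads. Of the 26267 genes, the file named 16217 and the GRCm38 annotation 10010, while 40 kept only an identifier.

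Log2 of the normalised count plus 1 was modelled in limma 3.58.1 under R 4.3.3, with 8 group means over all 24 libraries and the trend option. Benjamini-Hochberg adjustment ran over the 12628 genes with a normalised count of 10 or more in at least 2 libraries. The reads were tested with edgeR 4.0.16 (quasi-likelihood) and with DESeq2 1.42.0, which left 740 adjusted p-values undefined. A difference within a replicate number compares 2 libraries and has no test. Lists are described by counts and medians of tested members. Promoter windows came from RefSeq. The work used python 3.11.15, numpy 2.4.6, pandas 2.3.3 and matplotlib 3.10.9.

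The members and gene lists were chosen with earlier results of these data known. Named genes are the smallest p-values in each direction, the genes edgeR called, the key members of each list and its 2 members with the smallest p-values, the smallest p-values of each difference between responses, and Mdm4, Fancg, Trp53, Mdm2, Cdkn1a, Ly6a, Kit and Xist. Chosen after their values were seen were Cd3e, Ly6g, Cd8b1, Cma1, Tpsb2, S100a8, Csf3r, Alas2, Hba-a1, Gata2 and Notch1.

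In simulated data for the poly(I:C) comparison in Mdm4Tg (12628 genes), limma found 45 of 100 genes set to a log2 change of 1 and 94 of 100 set to 2, and made 4 false calls. EdgeR found 53 and 94 and made 4. For the difference of responses to WT, limma found 16 and 86 and made 3 false calls, and for that to FancgKO_Mdm4Tg it found 16 and 77 and made 6. The simulated libraries held no effect of the replicate number, and the changed genes had a mean of 50 or more in the Mdm4Tg libraries. These shares found therefore need not hold for the real libraries or for genes with lower counts. The alternatives tried were pseudocounts, filters, scalings, a fit without the trend, weights per library, the replicate number as a block, the compared groups alone, both read-based tools, and each library left out. Added after seeing the data were reads thinned to the smallest library, edgeR with the block, the block with a library left out, and differences within a number.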

Additional observations from a re-analysis of the deposited data

How the results depend on the processing

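The count of genes called for poly(I:C) against PBS in Mdm4Tg, 0 in limma over all libraries, was 597 with array weights (344 higher), 23 with only the compared groups (13 higher), 13 in edgeR, 45 in DESeq2 and 1 with reads thinned to the smallest library. It stayed at 0 under the other pseudocounts, filters and scalings and without the trend, and ran from 0 to 11 when each library was left out, with 11 without Mdm4Tg_PBS replicate 7. Libraries of the same number correlated at 0.427 (7) and 0.356 (8) after group means were removed, those of different numbers at -0.427 to 0.268. Since there are 2 poly(I:C) libraries, their deviations from the group mean are mirror images. Each correlation of poly(I:C) replicate 7 is thus that of replicate 8 with the sign reversed, and these are not separate evidence. With 2 numbers shared by the compared groups no pairing was assumed, since the labels tie a number to no animal, day or batch. Libraries of a number also share the title ending (_d or _d_2), whose meaning is not given. The replicate block, estimated over all libraries of the series, raised the limma count to 612 genes (288 higher) and the edgeR count to 1576. With only the compared groups the blocked limma count was 1178. Of these limma counts, the 612 became 289 without Mdm4Tg_PBS replicate 2, 764 without Mdm4Tg_PBS replicate 7, 9 without Mdm4Tg_PBS replicate 8, 189 without Mdm4Tg_PolyIC replicate 8 and 0 without Mdm4Tg_PolyIC replicate 7. The differences of responses gave 0 under every setting run, except 1 gene against FancgKO_Mdm4Tg with only the compared groups and the replicate block. The cause of these shifts was not tested.

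Of the list medians under all settings, 753 stayed within the spread of replicates, 83 moved and 13 changed sign by more than that spread, in lists with main medians from -0.11 to 0.22. Other changes of sign lay within the spread, among them those of the immediate early list, whose median ran from -0.99 to 1.78 over all settings. The dendritic cell median was 0.27 with only the compared groups and the replicate block and -0.33 to 0.27 with each library left out (0.27 without PBS replicate 2 under the block). The same range was -0.14 to 0.0039 for interferon receptors and JAK-STAT, -0.18 to 0.085 for quiescence genes (0.056 with array weights) and -0.31 to 0.30 for NF-kB genes. Class II genes were at -0.38 with the minimum count at 50 and -0.41 with thinned reads. Targets of p53 were at -0.057 with the minimum at 50 and, with the replicate block, -0.041 without poly(I:C) replicate 7. Under that block the neutrophil median was -0.39 without PBS replicate 8, the Fanconi median -0.012 without PBS replicate 7, and Pmaip1 was at -0.22 without poly(I:C) replicate 7. Depth differs by a wide margin between the libraries, and genes with a few reads, such as Kcnc1, cannot be ranked.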

Other observations

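Small nuclear and small nucleolar RNA genes were mostly higher in the Mdm4Tg poly(I:C) libraries. Of 32 small nuclear RNA genes tested 29 had a positive log2 difference (median 1.43) and 19 lay above all PBS libraries, against medians of 0.27 in WT and 0.26 in FancgKO_Mdm4Tg. Their summed normalised count was 1126, 2041 and 930.07 in PBS replicates 2, 7 and 8 and 3251 and 4011 in poly(I:C) replicates 7 and 8. Small nucleolar RNA genes were positive in 79 of 87 (median 0.56, WT -0.02, FancgKO_Mdm4Tg 0.14), and 31 lay above all PBS libraries. The libraries were made from polyadenylated RNA, and how well such short RNAs were recovered in each library is not given. The part of recovery and of length in these differences was not tested. The summed level of small Cajal body RNA genes did not separate the groups, at 1829 in PBS replicate 7 against 1740 and 1652 with poly(I:C). Rnu12, the U12 RNA of the minor spliceosome, was at 88.9, 128 and 58.5 with PBS and at 163 and 264 with poly(I:C), and its response exceeded that of WT by 1.498 ± 0.418 (limma unadjusted p = 0.00163, adjusted p = 1). Gm25360, a small nuclear RNA gene called by edgeR, was at 109, 147 and 118 against 364 and 631. Long intergenic noncoding RNA genes went the other way, with 47 of 169 positive and a median of -0.30. The ribosomal RNA gene CT010467.1 was at 7978, 25495 and 26587 with PBS and at 4555 and 7984 with poly(I:C), so the groups overlapped by PBS replicate 2.

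Heme synthesis genes were positive in 11 of 12, with 7 above all PBS libraries and a median of 0.71 (0.54 within number 7 and 0.68 within number 8). Glycolysis genes were positive in 13 of 16 (median 0.32) and Tribbles and C/EBP genes in 7 of 9 (1.15). Quiescence and CDK inhibitor genes were positive in 9 of 19 (-0.04), NF-kB and inflammation genes in 10 of 24 (-0.11), interferon-inducible GTPases in 6 of 16 (-0.15), class II presentation genes in 5 of 9 (0.08) and dendritic cell genes in 4 of 8 (-0.01). B cell genes were positive in 1 of 6 (-1.61), with Pax5 at 10.5 or less in every library. The 2 tested neutrophil genes had a median of 0.09, the 3 tested T and NK cell genes -0.44 and the 2 tested stroma and endothelium genes -0.998. The sort gate and lineage genes were positive in 2 of 9 (-0.41).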
